A study of Mus musculus with 6 samples.

Results

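The 10 genes described here make or encode messengers of the enteric nervous system, the network of neurons and glia within the gut wall. They are Nos1, Chat, Vip, Gal, Npy, Cartpt, Nmu, Penk, Grp and Tac1. Each was represented by 1 probe set, annotated to that gene alone and with the highest mean over all 6 arrays, and all 10 were measured among the 18193 genes tested. Nos1 had 4 probe sets, Tac1 had 2 and the other members had 1 each. Expression was measured on single-colour arrays in total RNA of the colon of untreated female C57BL/6J mice, an inbred strain, with no age given in the labels. There were 3 libraries labelled proximal colon and 3 labelled distal colon, and 3 animals gave both regions.

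Enteric motor neurons fall into excitatory cells, which release acetylcholine and tachykinins onto the muscle, and inhibitory cells, which release nitric oxide and vasoactive intestinal peptide. Sensory neurons and interneurons within the wall carry further peptides, among them neuromedin U and calcitonin gene-related peptide. Neuropeptides are cut from precursor proteins and stored in dense core vesicles, and they act on G protein-coupled receptors of neurons, muscle, epithelium and immune cells. Levels below are log2 values per probe set, and differences are distal minus proximal on that scale. Levels of different probe sets cannot be set against each other. In tissue RNA, fewer neurons and less messenger RNA per neuron cannot be told apart.

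The whole-array profiles of proximal 1 and distal 3 ran counter to what their labels say. Over the genes tested, the library labelled proximal 1 correlated at r = 0.994 and 0.990 with distal 1 and 2, against 0.977 and 0.975 with proximal 2 and 3, and the library labelled distal 3 correlated at r = 0.996 and 0.995 with proximal 2 and 3, against 0.974 and 0.976 with distal 1 and 2. Genes are not independent replicates, so these coefficients only describe the arrays. Each result is therefore given for the 6 libraries as labelled and for the 4 libraries left without proximal 1 and distal 3, and no library was moved to another label. Because those libraries were left out for their own profiles, the p-values of the 4-library fit are too small as evidence and hold for those 4 arrays alone. No batch is named in the labels, and p-values measure only the spread between these libraries.

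Among genes that mark neurons in general, a list of 18, the summed level was 13.57, 13.23 and 13.00 in proximal 1, 2 and 3, and 13.42, 13.59 and 13.27 in distal 1, 2 and 3, as log2. It was thus lowest in proximal 3 and highest in distal 2 and proximal 1. The medians of the 10 members' deviations from their own means were 0.37, -0.22 and -0.45 in proximal 1, 2 and 3. In distal 1, 2 and 3 they were 0.03, 0.16 and -0.15. By that measure the neuronal markers ran from -0.31 in proximal 3 to 0.28 in distal 2, with 0.12 in proximal 1. Both lists were thus lowest in proximal 3, but the members were highest in proximal 1. Proximal 1 was the highest library for 5 of 10 members, where 15.5% of all genes were highest there, and proximal 3 was the lowest for 6 of 10, where 14.2% of all genes were lowest there.

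**Figure D1:**
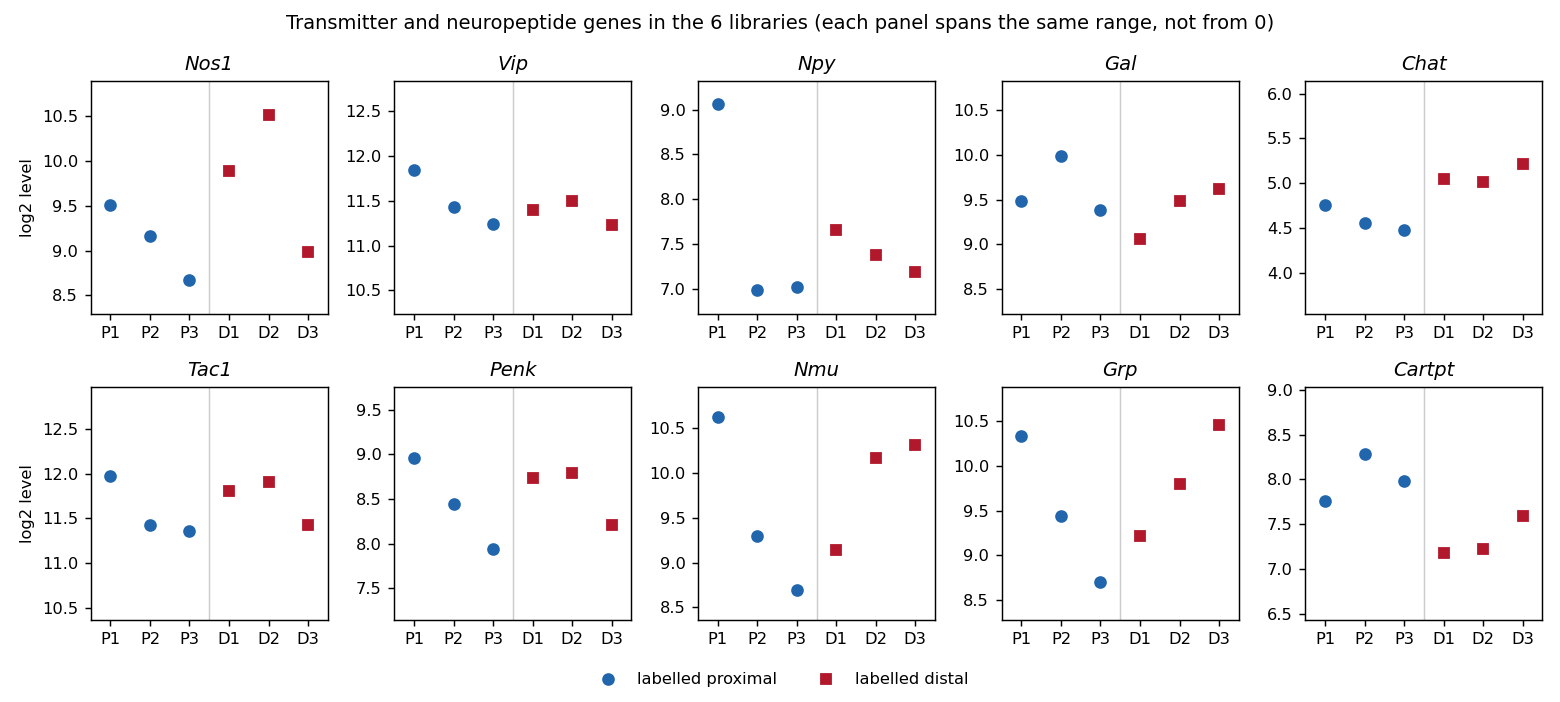
Log2 level of each of the 10 genes (vertical axis) in the 3 libraries labelled proximal (P1 to P3, circles) and the 3 labelled distal (D1 to D3, squares), 1 point per library. Cartpt and Chat are the members whose groups do not overlap as labelled, Npy stands high in proximal 1 alone with 9.06, and Nmu and Grp are high in proximal 1, distal 2 and distal 3.

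As labelled, no gene passed in limma, the 10 members included, so the lack of calls is not particular to them. Limma called 0 of 10 members at an adjusted p of 0.05, where it called 0% of all genes tested, and at an unadjusted p of 0.05 there were 2 members, Chat and Cartpt, and 554 genes. The groups did not overlap for the same 2 members, against 7.33% of all genes. The median difference of the 10 members was 0.13, beside -0.02 over all genes.

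Without proximal 1 and distal 3, 4 of 10 members (40.0%) passed: Nos1, Tac1 and Chat were higher in distal libraries and Cartpt was lower. Of all genes 19.2% passed, with 7.71% up and 11.5% down from proximal to distal. The groups did not overlap for 6 members, where 62.2% of all genes did not. The median difference of the members was 0.49, beside -0.045 over all genes. With any 1 of the 4 libraries left out, 0 of 10 members passed, and the lone library of a label was then assumed to vary like the other pair.

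**Figure D2:**
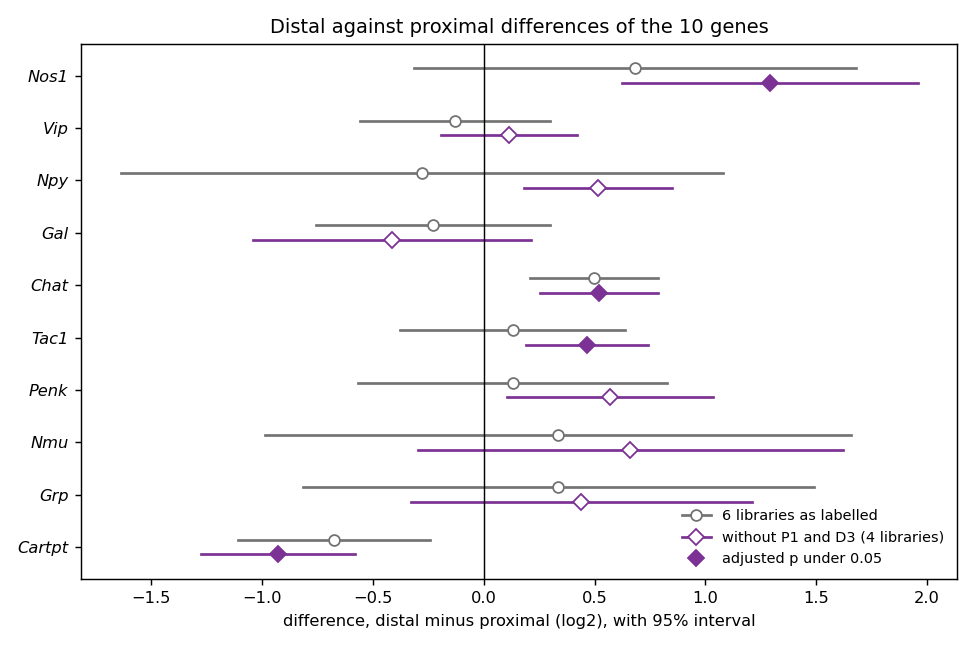
Difference of each gene, distal minus proximal on the log2 scale (horizontal axis), with its 95% interval from limma, for the 6 libraries as labelled (circles) and without proximal 1 and distal 3 (diamonds). Filled symbols passed an adjusted p of 0.05: Nos1, Chat and Tac1 lie above 0 and Cartpt at -0.93.

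Nos1, the neuronal nitric oxide synthase that marks inhibitory motor neurons, had the largest difference of the 10 in the 4-library fit. It measured 9.51, 9.16 and 8.67 in proximal 1, 2 and 3, and 9.89, 10.52 and 8.98 in distal 1, 2 and 3. Distal 2 and distal 1 were highest, and the library labelled distal 3 lay among the proximal ones. The 3 libraries labelled distal averaged 9.80 ± 0.77 (SD, n = 3) and the 3 labelled proximal 9.11 ± 0.42 (SD, n = 3), which differ by 0.68 (95% interval -0.31 to 1.68, limma adjusted p = 0.824). Without proximal 1 and distal 3 the difference was 1.29 (SE 0.26, limma adjusted p = 0.0291), a 2.45-fold higher level in distal 1 and 2. Its 4 probe sets all had that direction, with differences of 0.105 to 1.29, and their mean differed by 0.72 (limma adjusted p = 0.0320). The probe sets with the differences of 0.34 and 0.105 measured 5.62 to 6.09 and 6.36 to 6.55, below or about the lower quartile of 6.54 over all genes and libraries. The library labelled proximal 1 lay between the pairs, 0.695 below the distal pair and 0.595 above the proximal pair.

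Of the other genes linked to inhibitory neurons, Vip, Gal and Npy did not pass in either fit. Vip encodes vasoactive intestinal peptide, a relaxant of smooth muscle and a stimulant of epithelial secretion. It measured 11.85, 11.43 and 11.24 in proximal 1, 2 and 3, and 11.40, 11.50 and 11.23 in distal 1, 2 and 3. All libraries but proximal 1 lay within 0.27 of each other. The difference was -0.13 as labelled (95% interval -0.56 to 0.30) and 0.12 without proximal 1 and distal 3 (95% interval -0.19 to 0.42, limma adjusted p = 0.560).

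Gal encodes galanin, which acts on neurons and muscle. It measured 9.48, 9.99 and 9.38 in proximal 1, 2 and 3, and 9.06, 9.48 and 9.62 in distal 1, 2 and 3. Proximal 2 was highest and distal 1 lowest, and the groups overlapped. The difference was -0.23 as labelled (95% interval -0.76 to 0.30) and -0.42 without proximal 1 and distal 3 (95% interval -1.04 to 0.21, limma adjusted p = 0.303).

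Npy encodes neuropeptide Y, carried by enteric neurons and by sympathetic fibres. It measured 9.06, 6.98 and 7.02 in proximal 1, 2 and 3, and 7.65, 7.38 and 7.19 in distal 1, 2 and 3. The library labelled proximal 1 stood far above the other 5, which spanned 0.67. The difference was -0.28 as labelled (95% interval -1.64 to 1.08), 0.41 without proximal 1, and 0.52 without proximal 1 and distal 3 (95% interval 0.18 to 0.85, limma adjusted p = 0.0511, and 0.0461 and 0.0391 after quantile normalization and median centring). Markers of pancreatic acinar cells, the enzyme-secreting cells of the pancreas, were also high in proximal 1, with a summed level of 15.95 for 11 genes, and equally so in distal 1, with 16.00, against 12.35 to 13.55 in the other libraries. Each of the 11 was higher in both of these libraries than in any other, and Npy was 1.41 lower in distal 1 than in proximal 1. Pancreatic islet markers summed to 12.10 in proximal 1 and 12.55 in distal 1, against 10.01 to 10.63 in the other libraries. In sympathetic neurons Th and Dbh make the catecholamines. In proximal 1 Dbh measured 6.85, within its range of 6.63 to 7.36 over the other libraries. Th measured 4.82 to 5.21, below the lower quartile in every library, where background can make up the signal. The source of the high Npy level in proximal 1 was not tested.

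Of the excitatory genes, Tac1 and Chat passed in the 4-library fit. Tac1 encodes the precursor of substance P and neurokinin A, and is also expressed by some enteroendocrine cells. It measured 11.97, 11.42 and 11.36 in proximal 1, 2 and 3, and 11.80, 11.91 and 11.43 in distal 1, 2 and 3. Proximal 1, distal 1 and distal 2 were high and the other 3 low, a split that crosses the labels. The difference was 0.13 as labelled (95% interval -0.38 to 0.64) and 0.47 without proximal 1 and distal 3 (SE 0.11, limma adjusted p = 0.0409), and 0.34 with an adjusted p = 0.0733 when both probe sets were averaged. The second probe set measured 4.28 to 4.65, under that lower quartile.

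Chat encodes choline acetyltransferase, which makes acetylcholine. It measured 4.76, 4.55 and 4.47 in proximal 1, 2 and 3, and 5.05, 5.01 and 5.21 in distal 1, 2 and 3. Every distal library lay above every proximal one, but all values were below that lower quartile, where background can make up the signal. The difference was 0.50 as labelled (SE 0.12, limma adjusted p = 0.824) and 0.52 without proximal 1 and distal 3 (SE 0.11, limma adjusted p = 0.0284). Slc18a3, the vesicular acetylcholine transporter, measured 5.80 to 6.32 and Slc5a7, the choline transporter of cholinergic terminals, 5.05 to 5.39. Both were thus also below the lower quartile in every library, and neither passed in either fit.

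Penk encodes the precursor of the enkephalins, opioid peptides of excitatory motor neurons. It measured 8.96, 8.44 and 7.94 in proximal 1, 2 and 3, and 8.73, 8.79 and 8.21 in distal 1, 2 and 3. Proximal 1, distal 2 and distal 1 were highest, the same libraries as for Tac1. The difference was 0.13 as labelled (95% interval -0.57 to 0.83) and 0.57 without proximal 1 and distal 3 (95% interval 0.10 to 1.04, limma adjusted p = 0.0907).

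Cartpt, the precursor of cocaine- and amphetamine-regulated transcript peptides, ran the other way from Nos1. It measured 7.76, 8.28 and 7.98 in proximal 1, 2 and 3, and 7.18, 7.22 and 7.59 in distal 1, 2 and 3. Every proximal library lay above every distal one, the libraries labelled proximal 1 and distal 3 included, though these were the nearest of each group to the other. The 3 libraries labelled distal averaged 7.33 ± 0.23 (SD, n = 3) and the 3 labelled proximal 8.01 ± 0.26 (SD, n = 3), so that the difference was -0.68 (SE 0.18, limma adjusted p = 0.824). Without proximal 1 and distal 3 it was -0.93 (SE 0.14, limma adjusted p = 0.0120), a 1.91-fold lower level in distal 1 and 2.

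The window of Cartpt is shown because it was the only member whose window held the whole cAMP response element TGACGTCA, the site bound by the factor CREB. Windows were the 250 bases before a start given in RefSeq's promoter table for the build GRCm38.p6, which held 8 of the 10 members. A gene can have several starts, and the start listed need not be the outermost. Penk and Grp had no entry matched here. The element, which reads alike on both strands, was in 1.55% of all 32851 windows. Its first 5 letters, TGACG, which it contains, were in 6 of the 8 members on either strand, namely Nos1, Chat, Vip, Cartpt, Nmu and Tac1, and in 17.8% of all windows. The windows below run 5′ to 3′ on the gene's strand, with these letters, or their reverse complement CGTCA, in capitals. The Cartpt window lies at chr13:99900684-99900933 on the minus strand, with the element starting 112 bases before the listed start. All 250 bases of this window, and 25 bases of the one of Vip, lie inside the gene's full RefSeq interval, which for Cartpt is chr13:99898483-99910179. The Tac1 window lies at chr6:7554811-7555060 on the plus strand. It is shown because Tac1 passed in the 4-library fit and the window held 2 matches, starting 197 and 43 bases before the start. A match describes letters and is not a measured binding site.
Cartpt: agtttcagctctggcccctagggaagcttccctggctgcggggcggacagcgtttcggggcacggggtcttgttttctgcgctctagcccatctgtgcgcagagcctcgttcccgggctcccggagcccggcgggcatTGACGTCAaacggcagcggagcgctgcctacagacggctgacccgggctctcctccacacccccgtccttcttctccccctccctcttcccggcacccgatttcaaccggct
Tac1: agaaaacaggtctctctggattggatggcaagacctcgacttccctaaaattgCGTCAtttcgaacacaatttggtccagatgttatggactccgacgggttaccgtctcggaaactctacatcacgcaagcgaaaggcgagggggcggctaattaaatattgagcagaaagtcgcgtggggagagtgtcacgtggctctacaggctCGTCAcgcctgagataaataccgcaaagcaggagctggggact

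Nmu and Grp shared a pattern that neither the labels nor the split of the other genes gave. Nmu encodes neuromedin U, a peptide of intrinsic sensory neurons in the mouse, and measured 10.63, 9.30 and 8.69 in proximal 1, 2 and 3, and 9.14, 10.17 and 10.31 in distal 1, 2 and 3. Grp encodes gastrin-releasing peptide, and measured 10.33, 9.44 and 8.70 in proximal 1, 2 and 3, and 9.22, 9.80 and 10.46 in distal 1, 2 and 3. For both, proximal 1, distal 3 and distal 2 were high, followed by proximal 2, distal 1 and proximal 3. The spans from lowest to highest were 1.94 and 1.76, a 3.84-fold and 3.39-fold range, and 96.8% and 96.0% of all genes had a smaller span. The Nmu difference was 0.33 as labelled (95% interval -0.99 to 1.66) and 0.66 without proximal 1 and distal 3 (95% interval -0.30 to 1.62, limma adjusted p = 0.286). The Grp difference was 0.34 as labelled (95% interval -0.82 to 1.49) and 0.44 without them (95% interval -0.33 to 1.21, limma adjusted p = 0.371).

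The gene most like Nmu was Calcb, which encodes the beta form of calcitonin gene-related peptide, another product of intrinsic sensory neurons. Likeness was the root mean square difference of gene-centred log2 levels over the 6 libraries, among 2241 named genes with a span of at least 1. Calcb measured 10.43, 9.03 and 8.49 in proximal 1, 2 and 3, and 8.61, 9.90 and 10.31 in distal 1, 2 and 3. Its order of libraries was that of Nmu, and it lay 0.156 from it. Grp was second at 0.209. Within a distance of 0.25, Nmu had 2 genes, Grp 2 and Npy 5, where Nos1 had 91, Cartpt 128 and Penk 152. The distance is not scaled to the span, and a smaller span brings more genes within it. The span was 1.94 for Nmu and 1.85 for Nos1, but 1.10 for Cartpt and 1.02 for Penk. Of 2493 genes with a span of at least 1, 1 other gene had the order of libraries that Nmu had. For the other members this count ran from 0 for Gal to 27 for Nos1, with 2 for Cartpt. A low count therefore does not set Nmu apart.

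For Grp the nearest genes were Nr4a3, an immediate early orphan nuclear receptor, at 0.133, and Nmu at 0.209. Nr4a3 measured 9.63, 8.78 and 8.29 in proximal 1, 2 and 3, and 8.37, 9.07 and 9.74 in distal 1, 2 and 3. Grpr, the receptor of gastrin-releasing peptide, was chosen after its values were seen. It measured 8.56, 6.45 and 6.41 in proximal 1, 2 and 3, and 6.27, 7.58 and 8.20 in distal 1, 2 and 3. The ligand and its receptor were thus both high in proximal 1, distal 3 and distal 2, and the receptor lay 0.43 from Grp and 0.328 from Nmu by the same measure. In proximal 2, proximal 3 and distal 1 the receptor lay below the lower quartile of 6.54, so the size of its range is uncertain. Nmur1 and Nmur2, the receptors of neuromedin U, measured 5.98 to 6.71 and 4.56 to 4.93, with Nmur1 highest in distal 3, and neither passed in either fit.

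The windows of Nmu and Grpr are shown because both genes were high in proximal 1, distal 3 and distal 2. The Nmu window lies at chr5:76363778-76364027 on the minus strand, with TGACG starting 114 bases before the listed start. The Grpr window lies at chrX:163549737-163549986 on the minus strand, with TGACG starting 80 bases before the start. Capitals mark the same letters as above.
Nmu: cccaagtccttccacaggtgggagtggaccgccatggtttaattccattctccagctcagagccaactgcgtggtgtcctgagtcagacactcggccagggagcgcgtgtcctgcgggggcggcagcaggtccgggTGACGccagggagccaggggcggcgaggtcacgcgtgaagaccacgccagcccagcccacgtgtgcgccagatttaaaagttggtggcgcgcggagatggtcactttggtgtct
Grpr: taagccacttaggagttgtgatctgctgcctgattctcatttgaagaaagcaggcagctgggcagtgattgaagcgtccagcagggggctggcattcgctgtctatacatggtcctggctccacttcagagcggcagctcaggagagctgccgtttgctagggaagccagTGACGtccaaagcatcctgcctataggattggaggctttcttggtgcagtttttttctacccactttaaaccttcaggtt

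**Figure D3:**
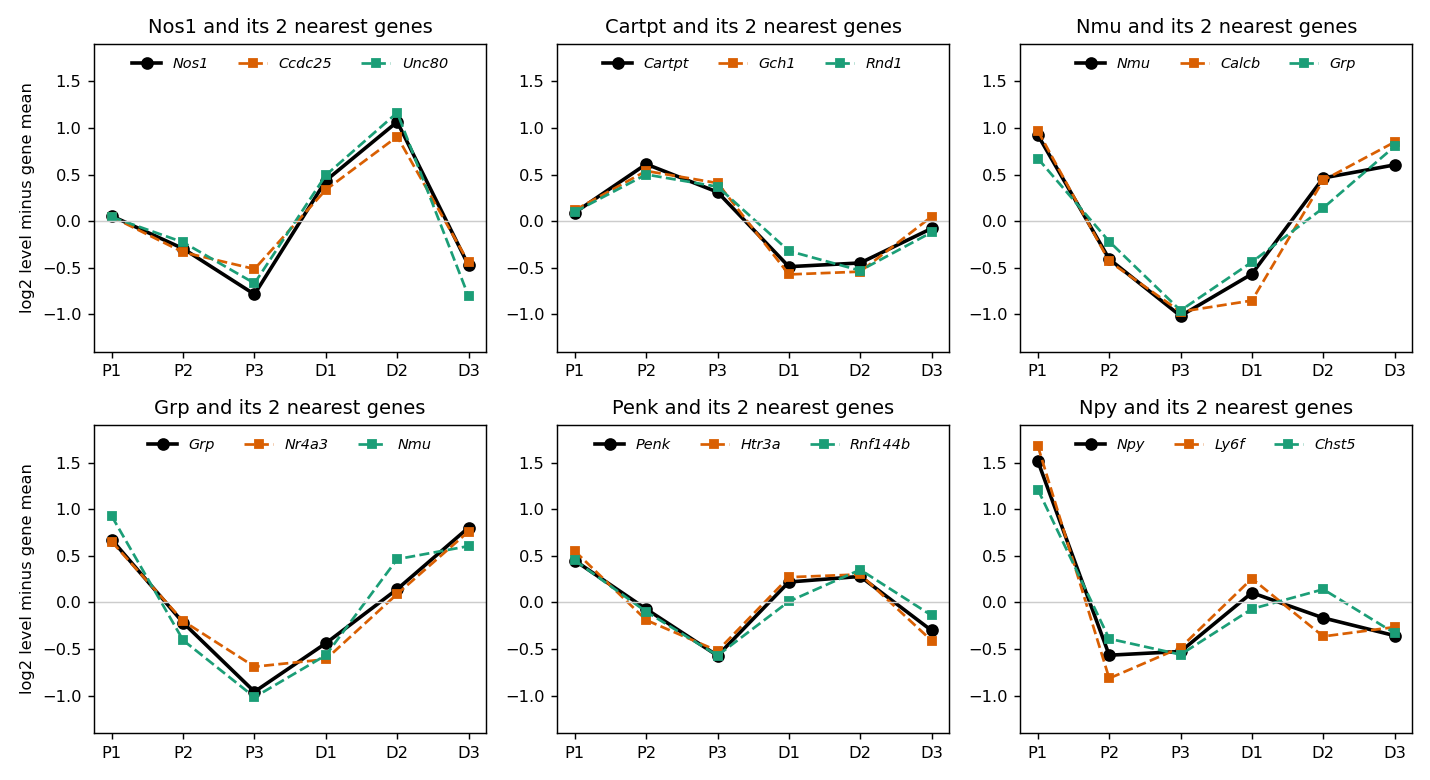
Gene-centred log2 level (vertical axis) over the 6 libraries (P1 to P3 labelled proximal, D1 to D3 labelled distal) for each member with a span of at least 1 (black) and its 2 nearest genes (coloured). Lines only join the points of a gene. Nmu with Calcb and Grp dips in proximal 2, proximal 3 and distal 1, while Nos1 and Unc80 peak in distal 2 and Cartpt with Gch1 is low in distal 1 and 2.

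The patterns of Nos1, Cartpt and Penk were common, with 91, 128 and 152 genes within 0.25 of them, so their nearest genes are only examples. Nearest to Nos1 were Ccdc25 at 0.136 and Unc80, a subunit of the neuronal sodium leak channel, at 0.154. Unc80 measured 7.01, 6.74 and 6.30 in proximal 1, 2 and 3, and 7.46, 8.13 and 6.16 in distal 1, 2 and 3, and was highest in distal 2 like Nos1. Nearest to Penk were Htr3a, a subunit of the serotonin-gated channel, at 0.084 and the ubiquitin ligase Rnf144b at 0.112. Htr3a measured 8.75, 8.01 and 7.68 in proximal 1, 2 and 3, and 8.47, 8.50 and 7.79 in distal 1, 2 and 3.

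Nearest to Cartpt, among 128 genes within 0.25, were Gch1, the first enzyme of tetrahydrobiopterin synthesis, at 0.089 and the small GTPase Rnd1 at 0.094. Gch1 measured 9.81, 10.23 and 10.10 in proximal 1, 2 and 3, and 9.12, 9.15 and 9.74 in distal 1, 2 and 3. Like Cartpt, it was higher in every library labelled proximal than in any labelled distal. Tetrahydrobiopterin is a cofactor of nitric oxide synthases, and the Gch1 difference was opposite to that of Nos1, -1.03 without proximal 1 and distal 3 (SE 0.11, limma adjusted p = 0.00481). Nearest to Npy were Ly6f at 0.163 and the sulfotransferase Chst5 at 0.204, both of them, like Npy, highest in proximal 1. Ly6f measured 3.57 to 6.06, below the lower quartile in every library, where background can make up the signal. Chst5 measured 6.87 in proximal 1 and 5.10 to 5.80, below that quartile, in all others.

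Of 30 receptor genes measured of 33 listed, 0 passed as labelled, and without proximal 1 and distal 3 there were 3 higher in distal 1 and 2 and 2 higher in proximal 2 and 3, while 25 did not pass and 14 were below the lower quartile in all libraries. The share that passed was 16.7%, near that of all genes, and the median difference was 0.04. The largest difference was in Npy1r, the Y1 receptor of neuropeptide Y and peptide YY, which measured 8.66, 5.87 and 5.80 in proximal 1, 2 and 3, and 9.13, 9.14 and 5.92 in distal 1, 2 and 3. The 3 high libraries were proximal 1, distal 1 and distal 2, and the difference was 1.29 as labelled (limma adjusted p = 0.824) and 3.30 without proximal 1 and distal 3 (SE 0.10, limma adjusted p = 1.95e-04). The low pair lay below the lower quartile, so the size is uncertain.

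Npy2r, the Y2 receptor, was the reverse, with 6.43, 7.73 and 7.37 in proximal 1, 2 and 3, and 5.38, 6.37 and 7.57 in distal 1, 2 and 3. Its difference was -1.68 in the 4-library fit (SE 0.34, limma adjusted p = 0.0280). Galr2, a galanin receptor, measured 7.23, 9.25 and 8.99 in proximal 1, 2 and 3, and 7.01, 7.01 and 9.48 in distal 1, 2 and 3, a difference of -2.11 (SE 0.13, limma adjusted p = 0.00107). Both were thus higher in proximal 2 and 3, where Gal itself did not pass. Chrna7, a nicotinic acetylcholine receptor subunit, was higher in distal 1 and 2 by 1.25 (SE 0.13, limma adjusted p = 0.00468), and so was Adcyap1r1, the receptor of the peptide PACAP, by 0.78 (SE 0.18, limma adjusted p = 0.0414). The low pairs of Chrna7 and Npy2r, and of Gad2 below, also averaged under the lower quartile. As labelled, 0 of these 4 passed.

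**Figure D4:**
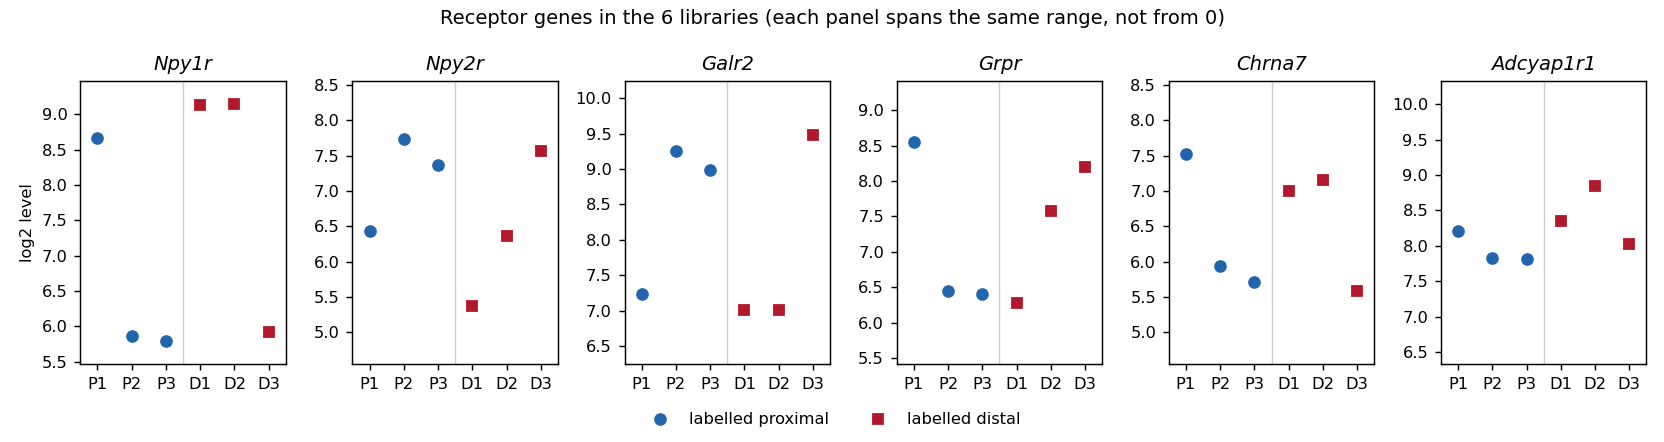
Log2 level (vertical axis) of 6 receptor genes in the libraries labelled proximal (P1 to P3, circles) and distal (D1 to D3, squares). Npy1r and Chrna7 are high in proximal 1, distal 1 and distal 2, Galr2 and Npy2r are high in the other 3, and Grpr is high in proximal 1, distal 2 and distal 3.

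Receptors for the products of Nos1 and Tac1 did not pass in either fit. Tacr1 and Tacr2, the receptors of substance P and neurokinin A, differed by -0.065 (SE 0.18) and -0.14 (SE 0.22) without proximal 1 and distal 3. Tacr2 measured 5.85 to 6.45, below the lower quartile in every library, and Tacr1 6.28 to 6.80, about that quartile. Background can make up such signals. Gucy1a1 and Gucy1b1, the subunits of the guanylate cyclase that nitric oxide activates, differed by 0.23 (SE 0.15) and -0.27 (SE 0.12), with limma adjusted p = 0.346 and 0.194. Vipr1, the epithelial receptor of vasoactive intestinal peptide, differed by 0.33 (SE 0.11, limma adjusted p = 0.0919).

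Of 22 genes for the synthesis, transport and breakdown of small transmitters, 0 passed as labelled, and in the 4-library fit 3 had a higher level in distal 1 and 2 and 2 in proximal 2 and 3. Higher in distal 1 and 2 were the serotonin transporter Slc6a4 (1.43, SE 0.20), Gad2, which makes GABA (1.81, SE 0.25), and acetylcholinesterase, Ache (0.60, SE 0.15). Gad2 measured 8.30, 6.12 and 6.56 in proximal 1, 2 and 3, and 7.84, 8.45 and 6.63 in distal 1, 2 and 3. Lower were Gch1, described above, and Maoa, a monoamine oxidase (-0.57, SE 0.11). The limma adjusted p of these 5 ran from 0.00481 to 0.0484. They were 22.7% of the 22 genes, near the 19.2% of all genes that passed. Slc6a4 and Maoa are also expressed by epithelial cells.

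Of 18 genes listed for other neuropeptides and secreted neuronal factors, among them the neurotrophin Bdnf and the BMP antagonist Nog, 0 passed as labelled and 1 passed in the 4-library fit, and 11 were below the lower quartile in all libraries. The gene that passed was Npff, the precursor of neuropeptide FF (0.81, SE 0.16, limma adjusted p = 0.0253). That was 5.56% of the list, where 19.2% of all genes passed. Somatostatin, Sst, did not pass (-0.36, SE 0.13, limma adjusted p = 0.108), and Tac2, Crh and Nog measured below the lower quartile throughout.

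Of 17 genes that process, store or break down peptides, 0 passed as labelled, and in the 4-library fit 3 had a higher level in distal 1 and 2 and 1 in proximal 2 and 3. Higher in distal 1 and 2 were Cadps2, a priming factor of dense core vesicles (1.14, SE 0.11), the amidating enzyme Pam (0.76, SE 0.16) and secretogranin 2, Scg2 (0.64, SE 0.15), and lower was the precursor convertase Pcsk1 (-1.31, SE 0.21). Their limma adjusted p ran from 0.00329 to 0.0423. The share of the 17 that passed, 23.5%, was near the 19.2% of all genes. Enteroendocrine cells, the hormone cells of the epithelium, use the same enzymes, and of 11 of their markers 3 had a higher level in distal 1 and 2 and 4 in proximal 2 and 3, among them Pyy (1.11) and Sct (-3.73). The part of these cells in the differences of the processing genes was not tested.

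Set against markers of neurons, Nos1 and Cartpt still passed in the 4-library fit. Of the 18 pan-neuronal markers, 3 were higher in distal 1 and 2, namely Elavl3 (0.90), Snap25 (1.14) and Map2 (0.89), 1 was lower, Nefl (-1.28), and 14 did not pass. The share that passed was 22.2%, near the 19.2% of all genes, and the median difference of the 18 was 0.23. The same fit was run with each array expressed relative to its mean over these markers, a scaling that moved the median of all genes to -0.32. Nos1 then differed by 1.02 (limma adjusted p = 5.42e-04), Cartpt by -1.21 (adjusted p = 2.22e-05) and Gal by -0.69 (adjusted p = 0.0285), so that 3 of 10 members passed, where 23.3% of all genes did. Chat (0.25, adjusted p = 0.470) and Tac1 (0.19, adjusted p = 0.577) no longer passed, and Vip turned to -0.16. This fit gave every gene the same standard error of 0.25, so its p-values carry no spread of the single gene. As labelled, 0 members passed under this scaling.

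Markers of the other cells of the wall were measured beside these. Of 7 glial markers 0 passed in either fit, with summed levels of 13.57 to 13.88. Erbb3, which epithelium also expresses, made up 92.2% to 94.0% of that sum, and the other 6 summed to 9.71 to 9.98. Of 12 smooth muscle markers only desmin, Des, passed in the 4-library fit, and the summed level was 16.98 in proximal 3, the lowest, and 17.11 to 17.30 elsewhere. Of 4 markers of interstitial cells of Cajal, the pacemaker cells of the muscle, Ano1 (1.70) and Gpr20 (0.75) were higher in distal 1 and 2, and Kit, the receptor that defines these cells, did not pass (0.025). Ano1 is also expressed by epithelium.

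Of 7 T lymphocyte markers 5 were higher in proximal 2 and 3, such as Cd3e (-1.33), and their summed level was 11.91 to 12.24 in proximal 2, proximal 3 and distal 3 and 10.70 to 11.10 in the others. Of 5 adipocyte markers 1, Cidec, passed, and their summed level was 12.69 in distal 2 and 14.15 in proximal 2. Of 7 pancreatic islet markers, Ppy and G6pc2 passed and were higher in distal 1 and 2, and of 11 acinar markers Cela1 was. Ins2 and Iapp, islet markers that did not pass, were instead highest in proximal 1 and distal 1. Ins2 measured 10.31 and 10.64 in these libraries and at most 7.02 in the others. Iapp measured 11.24 and 11.65 in them and at most 10.04 in the others. The summed islet and acinar levels given above were likewise highest in proximal 1 and distal 1. The part of these cell types in the members' levels was not tested. None of the marker genes passed as labelled.

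**Figure D5:**
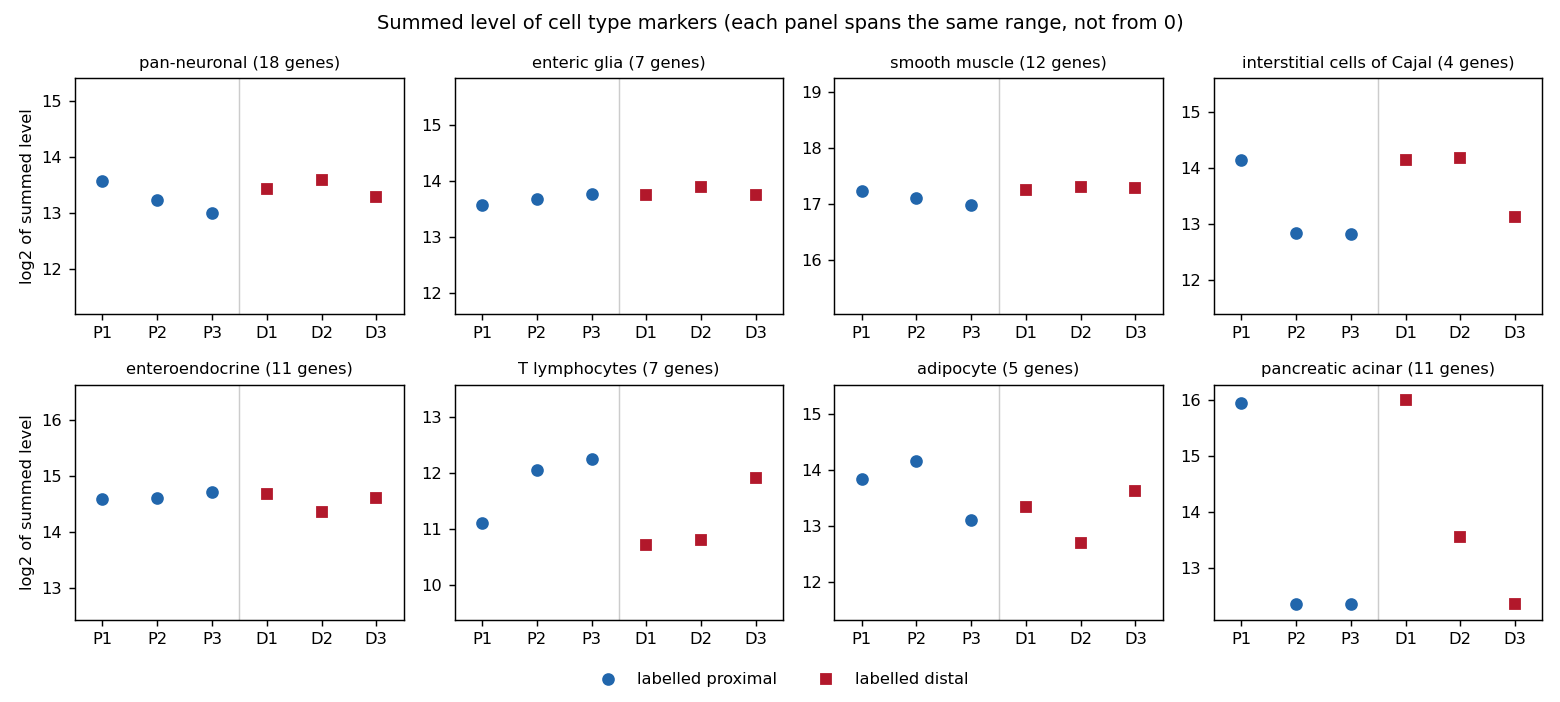
Log2 of the summed linear level of the measured markers of 8 cell types (vertical axis) in the libraries labelled proximal (P1 to P3, circles) and distal (D1 to D3, squares). Pancreatic acinar markers stand at 15.95 in proximal 1 and 16.00 in distal 1, and pan-neuronal markers span 0.59 over the 6 libraries.

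The libraries labelled proximal 1 and distal 3 did not side with the opposite label in every member. Proximal 1 lay nearer the mean of distal 1 and 2 than that of proximal 2 and 3 in 6 of 10 members, namely Vip, Npy, Nmu, Penk, Grp and Tac1, and in 57.2% of all genes. Distal 3 lay nearer the mean of proximal 2 and 3 in 6 of 10, namely Nos1, Vip, Gal, Npy, Penk and Tac1, and in 70.9% of all genes. For Nmu and Grp, distal 3 lay above both pairs, by 1.32 and 1.39 over the proximal pair and by 0.655 and 0.95 over the distal pair. For Cartpt it lay 0.54 below the proximal pair and 0.39 above the distal pair.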

How the data were processed

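Total RNA came from tissue homogenised in Trizol, was amplified with NuGEN Ovation kits and carried a biotin label, per the labels' protocols. The authors deposited log2 values, 1 per probe set, made with RMA in Partek 6.5 per the submitters' processing notes. The scale is taken from that note and the range of 2.91 to 15.16. RMA equalises the arrays' distributions, which hides any change common to most genes. No detection calls were used here, and precision is limited by the number of arrays.

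Of 45101 probe sets, 34945 have 1 gene, 932 several, 9160 none, and 64 are controls. Symbols were updated through the gene identifier with RefSeq's GRCm38.p6 table for 34741. The comparison of distal with proximal libraries used limma 3.58.1 under R 4.3.3 (lmFit, eBayes, two-sided, Benjamini-Hochberg adjustment over 18193 genes, threshold 0.05), without a block, and the calculation was tested on simulated data. Summed levels are log2 of the sum of linear values.

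Members, lists and alternatives were chosen with earlier results of these data known. Listed for naming were the members, up to 5 genes of each pathway list by p in the 4-library fit, the 3 markers of each cell type with the highest mean, and the 2 genes most like each member. Not all of these are given above. Other named genes, among them Grpr, the other receptors, Th, Dbh, Slc18a3 and Slc5a7, and those markers that passed, were chosen after their values were seen.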

Additional observations from a re-analysis of the deposited data

How the results depend on the processing

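As labelled, 0 members, 0 of 87 pathway genes and 0 of 18193 genes passed in limma under every alternative run: the replicate number as a block, genes with a mean below 9.31 left out, quantile normalization, median centring, probe sets averaged per gene, scaling to pan-neuronal markers, a trended and robust prior, each library left out, and, chosen after seeing the data, without proximal 1 and distal 1. At an unadjusted p of 0.05 the number of genes ran from 200 to 3103. With the replicate block it was 1065, against 554 without it. Same-numbered libraries' deviations from their group means correlated at r = 0.677, -0.448 and 0.678 for numbers 1, 2 and 3, values that include the libraries whose profiles ran counter to their labels. These libraries shape the group means and so the deviations, and the correlations cannot show which libraries share an animal. The labels do not say it either, so the numbers were not taken as pairs. In the 4-library fit no block was run, since its groups share 1 number.

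Of the 4 members that passed, 2 were among the 6 members kept when dim genes were left out, and with 1 library left out the count was 0. Of 15 pathway genes, 7 passed without dim genes, and 2 to 12 with 1 library left out, 12 without distal 1 and 2 without any of the others. The 3494 genes became 146 to 1633. Among the genes that passed, 40.1% had a higher distal level, and 50.2%, 54.7% and 14.1% under quantile normalization, median centring and pan-neuronal scaling.

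As labelled, signs turned for Vip (0.042 without proximal 1, 0.03 without proximal 1 and distal 1), Npy (0.41 and 0.29), and, without proximal 3, Nmu (-0.092), Penk (-0.12) and Grp (-0.058). With 1 library left out in turn, the differences as labelled ran from -0.26 to 0.042 for Vip, -0.63 to 0.41 for Npy, -0.092 to 0.88 for Nmu, -0.12 to 0.39 for Penk and -0.058 to 0.76 for Grp, and, with no change of sign, from 0.32 to 1.09 for Nos1, -0.35 to -0.043 for Gal and 0.018 to 0.32 for Tac1. In the 4-library fit they ran from 0.145 to 1.175 for Nmu, 0.07 to 0.81 for Grp, -0.72 to -0.11 for Gal, 0.32 to 0.82 for Penk and 0.02 to 0.21 for Vip. Vip turned to -0.16 under pan-neuronal scaling of the 4 libraries. The cause was not tested.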
